A study of Mus musculus with 4 samples.

Results

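The extracellular matrix and stromal gene group held 35 genes, chosen by name: collagens, matrix glycoproteins, enzymes and inhibitors that process matrix, receptors of fibroblasts and stroma, and contractile genes of mesenchymal cells. Of these, 33 had a probe set that the platform annotation assigns to 1 gene symbol, out of 18194 such genes on the array. Fbn1 and Loxl2 were not analysed here. Each gene was read from its brightest probe set, the one with the highest mean over the 4 arrays.

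Group 2 innate lymphoid cells (ILC2), lymphocytes that make type 2 cytokines without a rearranged antigen receptor, had been grown for 2 weeks with IL-7 and IL-33 on OP9-DL1. OP9-DL1 is a mouse bone marrow stromal line that displays the Notch ligand Delta-like 1. ICOS-positive cells were then sorted, and their RNA was read on Affymetrix arrays. There were 2 littermate control and 2 Ets1-deleted samples, all of the C57BL/6 strain and all from the same kind of co-culture. The labels give neither the age of the mice nor how the Ets1 deletion was made. They also do not say whether the arrays of a group come from separate mice or cultures, so the p-values cover the spread among these samples, possibly a technical one, and no more.

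Fibroblasts and marrow stroma make the matrix: they assemble collagen chains in the endoplasmic reticulum, secrete them, and crosslink and remodel the fibres outside the cell. Lymphocytes make little fibrillar collagen, so its transcripts in a sorted lymphoid sample are commonly read as RNA of the supporting stroma. Since OP9-DL1 is itself a mouse line, the arrays cannot separate its transcripts from those of the ILC2. Protease inhibitors of the TIMP family and some surface molecules in this group are, by contrast, also made by many blood cells.

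Ets1 was 8.69-, 6.88-, 7.93- and 11.4-fold lower in the Ets1-deleted arrays by its 4 probe sets, whose place relative to the deleted part the labels do not state. The array medians lay between 96.5 and 97.7 intensity units, and the lowest value on any array was 39.47. Of 10873 tested genes, 2900 passed limma's test at an adjusted p of 0.05 (26.7%), with 13.9% higher after Ets1 deletion and 12.8% lower. A gene was tested when its mean over the arrays reached 97.44 intensity units, the median over all probe sets, called the dim limit here. Values below it are close to the floor of such arrays, where differences are compressed.

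Most of the matrix and stromal genes gave low signals that reached the dim limit in the mean of the 4 sorted samples. A total of 26 of the 33 did so, beside 10873 of all 18194 genes, and 14 reached 2 times that limit. With each gene's probe sets averaged instead, 20 of the 33 reached the limit, beside 10180 of all genes. The count of members thus depends on reading the brightest probe set. The limit is a median over probe sets, so reaching it does not by itself show expression. On the single arrays, 26 and 24 genes were at or above the limit in the controls and 22 and 24 in the Ets1-deleted samples. The 7 genes below the limit were Col4a2, Dcn, Lum, Postn, Thbs2, Pdgfra and Dll1. Several of these are defining genes of fibroblasts: Dcn and Lum encode small proteoglycans of the collagen fibre, and Pdgfra a growth factor receptor of mesenchymal cells. Lum read 65.24 and 63.74 intensity units in the controls and 57.82 and 64.26 in the Ets1-deleted arrays. Dcn gave 78.35, 79.6, 73.67 and 68.64 units in the same order, and Pdgfra 79.29, 77.43, 79.43 and 78.2. Dll1, the gene of the ligand that OP9-DL1 displays, read 73.95 and 71.34 units in the controls and 81.95 and 78.23 in the Ets1-deleted arrays. Both Ets1-deleted values exceeded both control values, under the dim limit. No label states whether its probe set covers the sequence carried by the stromal line. Collagen I and VI chains, Sparc, Bgn, Fn1 and Fstl1 were above the dim limit on all 4 arrays by their brightest probe sets. The second probe set of Fn1 (57.53 to 79.21 units) and 1 of Col1a2 (59.86 to 64.56) lay below it. The second of Fstl1 (94.26 to 103.46) lay on both sides. Further probe sets of Col1a1, Col1a2, Col6a2, Sparc and Bgn were above it on every array. The cell source of these transcripts was not tested. No array of OP9-DL1 alone was analysed here, so no share of stromal RNA can be given.

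**Figure D1:**
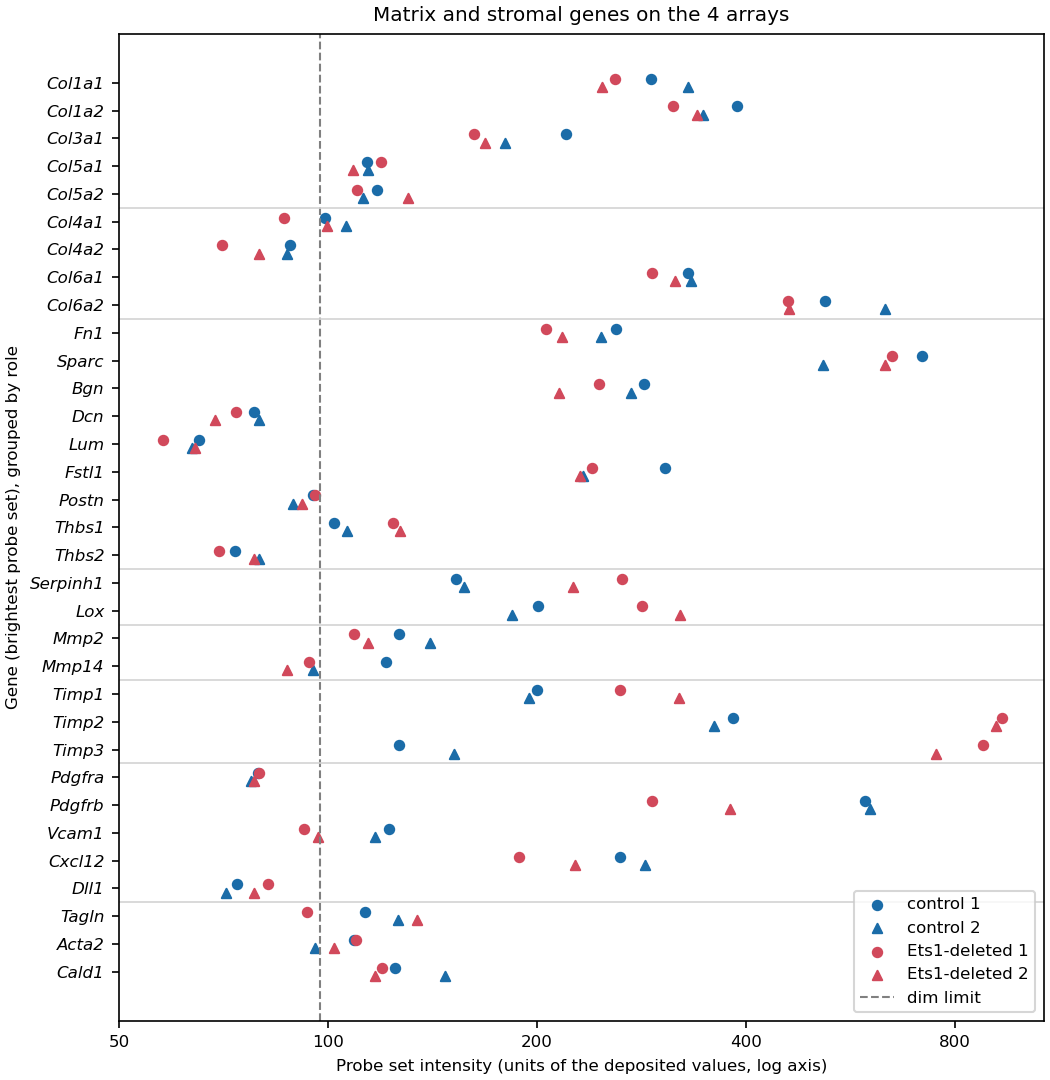
Probe set intensity (log axis, units of the deposited values) of the 33 measured genes on each of the 4 arrays, grouped by role, with the dim limit of 97.44 as a dashed line. Most genes show the 4 arrays close together. Timp2 and Timp3 stand far to the right in the Ets1-deleted arrays, and Pdgfrb to the left.

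Against this background, 5 genes rose and 3 fell in the Ets1-deleted arrays, and 18 of the 26 tested did not pass the test. The risers were Timp3, Timp2, Timp1, Serpinh1 and Lox, and those that fell were Pdgfrb, Cxcl12 and Vcam1. These are 19.2% and 11.5% of the tested members, beside 13.9% and 12.8% of all tested genes, so neither count stands far from the background. The median log2 difference over the 26 tested members was -0.16, against -0.0037 over all tested genes. The mean of the members was 0.07, opposite in sign to their median. Timp3 and Timp2 had the largest differences of the group, 2.55 and 1.32. In these bulk samples, fewer cells of a type and less RNA per cell cannot be told apart. Without any Timp gene, the summed intensity of the measured members was 6234 and 6035 units in the controls and 5445 and 5640 in the Ets1-deleted arrays. With them, the order was the opposite, at 6944 and 6740 units in the controls and 7522 and 7628 in the Ets1-deleted arrays. The groups did not overlap in either sum. The Timp genes are 3 of the 5 that rose, so leaving them out lowers the Ets1-deleted sums by the choice of genes. Among the members left, Pdgfrb fell most in units, from 594.4 and 603.91 in the controls to 292.67 and 379.67.

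**Figure D2:**
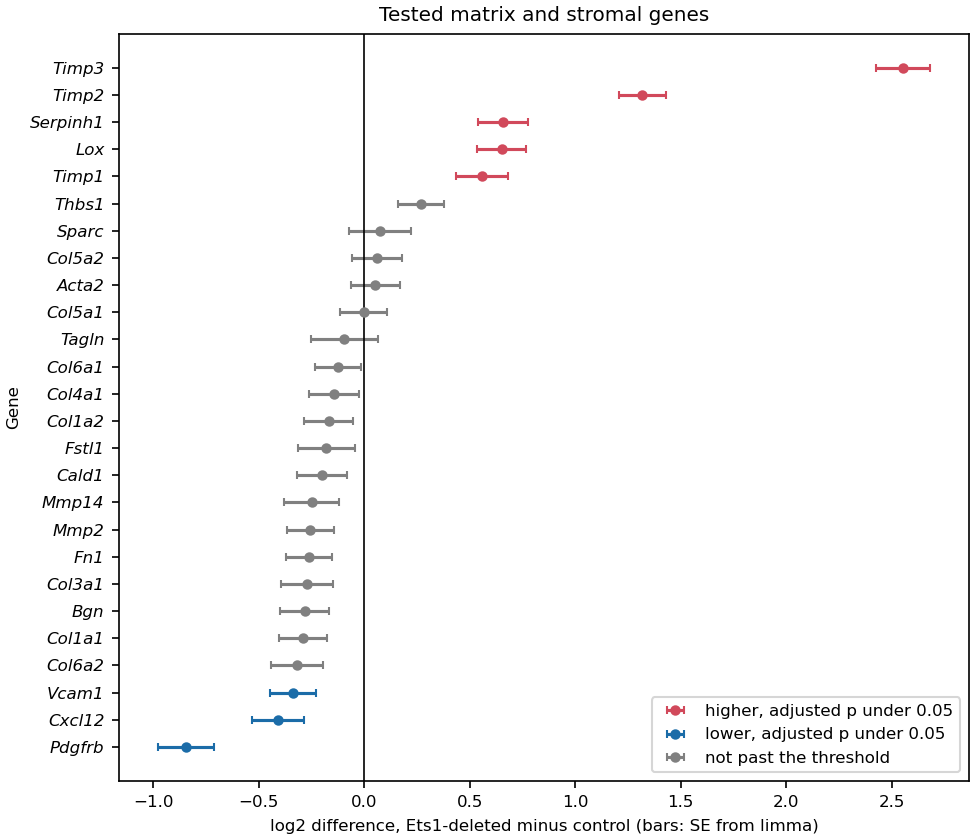
Log2 difference (Ets1-deleted minus control) of the 26 tested genes, with the SE from limma as bars. The 5 genes that rose lie between 0.56 and 2.55, the 3 that fell between -0.85 and -0.34, and most others slightly below 0.

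The 3 protease inhibitors all rose, and Timp3 and Timp2 departed furthest from the group. Timp1, Timp2 and Timp3 encode secreted inhibitors of matrix metalloproteinases. The TIMP3 protein binds to the matrix and also inhibits ADAM proteases such as ADAM17, which sheds TNF. Timp3 read 126.44 and 151.73 intensity units in the controls and 878.7 and 750.56 in the Ets1-deleted arrays. The control values lie close above the dim limit, and both Ets1-deleted values lie far from them. The log2 difference was 2.55 ± 0.13 (SE, n = 2 per group), 5.86-fold, with adjusted p = 5.46e-08 in limma. All 4 of its probe sets agreed, with log2 differences from 2.33 to 2.97. Timp2 read 383.84 and 359.24 units in the controls and 934.79 and 917.11 in the Ets1-deleted arrays. Its log2 difference was 1.32 ± 0.11, or 2.49-fold (limma, adjusted p = 3.03e-06). The 6 Timp2 probe sets were all higher with no overlap, although the size ranged from 0.52 to 1.32, and their mean gave 0.84. Timp1, which has 1 probe set, went from 199.95 and 194.54 units to 263.16 and 320.25. That is a log2 difference of 0.56 ± 0.12, 1.47-fold (limma, adjusted p = 0.00499). The 2 Ets1-deleted arrays differed more from each other for Timp1 than the controls did, by 0.28 against 0.04 on the log2 scale. In these 3 genes every Ets1-deleted array exceeded every control array.

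Promoter sequences of 4 of the 5 genes that rose are shown because these genes moved in the same direction when Ets1, which encodes a transcription factor that recognises a GGAA core in DNA, was deleted. They are the 250 bases before the annotated start, 5′ to 3′ on the gene's strand, from RefSeq on build GRCm38.p6. That table holds 23 of the 35 genes and was matched by symbol. Capitals mark GGAA, searched on both strands, so that its complement TTCC is in capitals too. The Timp3 window is chr10:86300162-86300411 (plus strand), the Timp2 window chr11:118355412-118355661 (minus strand), the Timp1 window chrX:20869916-20870165 (plus strand) and the Serpinh1 window chr7:99353240-99353489 (minus strand).
Timp3: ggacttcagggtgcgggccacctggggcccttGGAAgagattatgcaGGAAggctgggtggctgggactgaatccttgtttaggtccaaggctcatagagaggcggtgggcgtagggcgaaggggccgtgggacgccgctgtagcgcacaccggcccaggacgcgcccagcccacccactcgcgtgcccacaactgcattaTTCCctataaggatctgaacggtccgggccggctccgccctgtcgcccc
Timp2: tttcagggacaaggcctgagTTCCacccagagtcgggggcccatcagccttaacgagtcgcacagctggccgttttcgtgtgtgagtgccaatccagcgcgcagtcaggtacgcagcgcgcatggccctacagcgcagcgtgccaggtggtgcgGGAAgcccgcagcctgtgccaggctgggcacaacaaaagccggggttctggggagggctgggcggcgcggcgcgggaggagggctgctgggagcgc
Timp1: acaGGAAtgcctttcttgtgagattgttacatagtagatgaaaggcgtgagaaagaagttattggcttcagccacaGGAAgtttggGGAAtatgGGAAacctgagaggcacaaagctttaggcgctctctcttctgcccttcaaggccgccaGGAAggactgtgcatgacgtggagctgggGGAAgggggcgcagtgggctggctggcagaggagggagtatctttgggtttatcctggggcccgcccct
Serpinh1: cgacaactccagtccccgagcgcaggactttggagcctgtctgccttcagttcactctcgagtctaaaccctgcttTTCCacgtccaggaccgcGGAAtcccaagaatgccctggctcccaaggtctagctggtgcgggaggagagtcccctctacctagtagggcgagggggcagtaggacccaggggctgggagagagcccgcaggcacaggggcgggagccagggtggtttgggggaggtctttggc
Timp3 held 3 matches, Timp2 2, Timp1 6 and Serpinh1 2, where 93.4% of 32536 promoter windows of the same length held at least 1 and the median was 3. The longer word CCGGAA, with its complement TTCCGG, contains the core and was in none of these 4 windows, and 12.1% of all windows held it. A match is a run of letters and was not measured as a bound site.

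Collagen processing genes moved with the inhibitors. Serpinh1 encodes HSP47, the chaperone that folds procollagen in the endoplasmic reticulum, and Lox encodes lysyl oxidase, which crosslinks collagen and elastin outside the cell. Serpinh1 went from 152.68 and 157.27 units in the controls to 264.75 and 225.41 in the Ets1-deleted arrays, a log2 difference of 0.66 ± 0.12 (limma, adjusted p = 0.00137). Its second probe set was higher too, by 0.37. Lox read 200.67 and 184.09 units in the controls and 283.7 and 321.02 in the Ets1-deleted arrays (0.65 ± 0.12, limma adjusted p = 0.00133). Of its 2 other probe sets, 1 reached the dim limit and was higher by 0.45. The groups did not overlap for either gene.

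A list of 16 further genes of collagen modification and secretion had 12 tested, of which 6 rose and 0 fell (50%, beside 13.9% of all tested genes that rose). The median log2 difference of this list was 0.40. Plod2, a lysyl hydroxylase that prepares collagen for crosslinking, rose by 0.98 ± 0.11, from 305.73 and 318.48 units to 598.82 and 635.45. P4ha2 and P4ha1, the catalytic subunits of prolyl 4-hydroxylase, rose by 0.94 ± 0.11 and 0.90 ± 0.15. P4hb, the partner subunit and a general disulfide isomerase of the endoplasmic reticulum, rose by 0.60, Crtap by 0.49 and Plod3 by 0.49. The largest limma adjusted p among the 6 was 0.0217.

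Of the 8 tested collagen chains, 0 passed the test. Fibrillar collagens form the tensile fibres of connective tissue. Col1a1 read 291.64 and 330.3 units in the controls and 259.46 and 248.49 in the Ets1-deleted arrays (log2 difference -0.29 ± 0.11, limma adjusted p = 0.0842). Col1a2, the other chain of collagen I, read 388.2 and 346.66 against 313.88 and 339.71 (-0.17 ± 0.12). Col3a1, the chain of collagen III, gave 220.43 and 179.68 against 162.16 and 168.1 (-0.27 ± 0.12). For these 3 chains both Ets1-deleted values lay below both control values on the probe sets read. The other Col1a1 probe set, above the dim limit, overlapped, at 232.72 and 242.24 units against 235.63 and 187.47 (-0.18). Col5a1 (-0.0028) and Col5a2 (0.06), chains of collagen V, which regulates fibre diameter, overlapped between groups.

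Collagen VI forms beaded filaments around cells. Col6a2 read 520.65 and 634.29 units in the controls and 460.16 and 461.28 in the Ets1-deleted arrays, a log2 difference of -0.32 ± 0.12 that missed the threshold (limma, adjusted p = 0.0764). It passed with the mean over its 2 probe sets (-0.25, limma adjusted p = 0.0413) and without control 1 (-0.46, limma adjusted p = 0.0338). Col6a1 differed by -0.12 ± 0.11. Collagen IV is the network of basement membranes. Its chain gene Col4a1, at 98.99, 106.06, 86.49 and 99.56 units in the order above, was just over the dim limit, and Col4a2 below it. In a list of 12 other collagens, 6 were tested, 0 rose and 1 fell, Col18a1 (-0.40 ± 0.13, limma adjusted p = 0.0352). The other 6 collagens of that list lay below the dim limit.

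Matrix glycoproteins and proteoglycans gave 5 tested genes, none of which passed. Fn1 encodes fibronectin, the adhesive glycoprotein on which other matrix is laid down. It read 259.95 and 247.34 units in the controls and 205.91 and 217.12 in the Ets1-deleted arrays (-0.26 ± 0.11, limma adjusted p = 0.101). Bgn, the proteoglycan biglycan, read 285.2 and 273.32 against 245.34 and 214.98 (-0.28 ± 0.12), and its groups did not overlap on this probe set but did on the 2 others. Sparc, which encodes the collagen-binding protein osteonectin, read 718.04 and 517.4 in the controls, a wider gap than between the groups, and 649.3 and 634.74 in the Ets1-deleted arrays (0.07 ± 0.15). Fstl1, a secreted follistatin-like glycoprotein, was 305.43 and 233.2 against 240.46 and 230.57 (-0.18 ± 0.13), with overlapping groups. Thbs1 encodes thrombospondin 1, an adhesive protein that platelets, monocytes and stroma release. It read 102.15 and 106.49 units in the controls and 124.22 and 126.93 in the Ets1-deleted arrays (0.27 ± 0.11, limma adjusted p = 0.0915), with no overlap. The Thbs1 difference passed with the mean over its 2 probe sets (0.24, limma adjusted p = 0.0485) and with the array floor subtracted (0.53, limma adjusted p = 0.0247).

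Of 22 other matrix glycoproteins, 9 were tested, 3 rose and 0 fell, with a median of 0.04. The share that rose was 33.3%, beside 13.9% of all tested genes, and rests on few genes. Ccn3, a matricellular regulator of cell adhesion, rose by 2.01 ± 0.11, from 250.52 and 225.2 units to 942.88 and 970.4. Tgfbi, a TGF-beta-induced adhesion protein, rose by 0.75 and Vcan, the large proteoglycan versican, by 0.36. Among 10 laminin and basement membrane genes, 7 were tested, 2 rose and 1 fell. Lama5 and Lamc1, chains of laminin, rose by 1.21 ± 0.11 and 0.57 ± 0.14, while Nid2, which links laminin to collagen IV, fell by 0.78 ± 0.11. Their limma adjusted p values were at most 0.0354.

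Neither metalloproteinase of the group passed the test. Mmp2 encodes gelatinase A and Mmp14 the membrane protease that activates it, a step in which TIMP2 takes part. Mmp2 read 126.44 and 140.13 units in the controls and 108.9 and 114.21 in the Ets1-deleted arrays (-0.26 ± 0.11, limma adjusted p = 0.12). Mmp14 read 121.17 and 95.26 against 93.78 and 87.23, at the dim limit (-0.25 ± 0.13). Both were lower on every Ets1-deleted array by the probe sets read. The Ets1-deleted values of Mmp14 were under the dim limit. Its other probe sets, also under it, overlapped between groups (-0.0083 and -0.0081). In a list of 22 other matrix proteases and inhibitors, 12 were tested, 3 rose and 3 fell. Mmp13, a collagenase, rose by 1.89 ± 0.13, from 115.78 and 92.93 units to 407.91 and 364.79. The urokinase receptor gene Plaur rose by 1.13 and urokinase itself, Plau, by 0.62. Plaur, at 79.98 and 73.83 units in the controls, was under the dim limit there and was tested only through its Ets1-deleted values of 151.94 and 186.05. The membrane proteases Adam12 (-1.71 ± 0.13), Adam19 (-0.66) and Adam15 (-0.65) fell. Adam12 was tested only through its controls (212.02 and 219.47 units), since its Ets1-deleted values of 74.74 and 58.41 lie under the dim limit, where the size of a difference is uncertain. All 6 had a limma adjusted p of at most 0.00533.

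**Figure D3:**
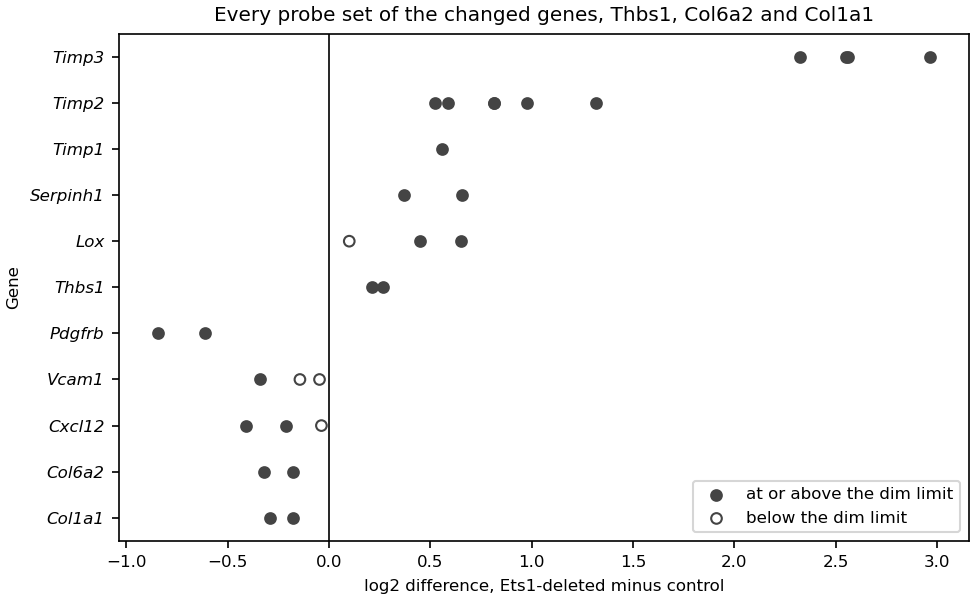
Log2 difference (Ets1-deleted minus control) of every probe set of the 8 genes that passed the test and of Thbs1, Col6a2 and Col1a1, filled where the probe set reached the dim limit. The Timp3 probe sets lie between 2.33 and 2.97 and those of Timp2 between 0.52 and 1.32, and no gene shown has probe sets on both sides of 0.

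Stromal receptors and ligands held all 3 of the falls. Pdgfrb encodes the PDGF receptor of fibroblasts and pericytes. It read 594.4 and 603.91 units in the controls and 292.67 and 379.67 in the Ets1-deleted arrays, a log2 difference of -0.85 ± 0.13 or 1.80-fold (limma, adjusted p = 0.000500). Its second probe set was lower by -0.61. Pdgfra, the related receptor, stayed below the dim limit on all 4 arrays. Cxcl12 encodes the chemokine with which marrow stroma retains lymphoid precursors. It read 263.2 and 286.13 units in the controls and 188.25 and 226.9 in the Ets1-deleted arrays (-0.41 ± 0.12, limma adjusted p = 0.0286). The Cxcl12 call was lost without Ets1-deleted 1 (-0.27, limma adjusted p = 0.178), without control 2 (-0.18, limma adjusted p = 0.54), where another of its probe sets was the brightest and was read instead, and when its probe sets were averaged (-0.22, limma adjusted p = 0.0656). Vcam1 encodes an adhesion molecule of stroma and endothelium. It read 122.53 and 116.9 units in the controls and 92.49 and 96.84, under the dim limit, in the Ets1-deleted arrays (-0.34 ± 0.11, limma adjusted p = 0.0383). The Vcam1 call was lost without any 1 of the 4 arrays, at limma adjusted p between 0.0561 and 0.214. Vcam1 was bright enough to be tested through its control arrays alone. Its other probe sets lay under the dim limit, at -0.047 with overlapping groups and at -0.14 with both Ets1-deleted values lower.

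Contractile genes mark myofibroblasts and smooth muscle. Acta2, the smooth muscle actin gene, read 108.89 and 95.82 units in the controls and 109.72 and 102.15 in the Ets1-deleted arrays (0.05 ± 0.12). Tagln, an actin-binding protein gene, gave 113.23 and 125.95 against 93.15 and 134.48 (-0.09 ± 0.16), the widest gap between the Ets1-deleted arrays of any tested member. Cald1, for caldesmon, gave 124.78 and 147.31 against 119.51 and 116.71 (-0.20 ± 0.12). None passed, and all 3 lay near the dim limit. A list of 18 other contractile and caveolar genes, many of which lymphocytes also express, had 14 tested, of which 7 rose and 1 fell (50% and 7.14%, beside 13.9% and 12.8% of all tested genes). The calponin gene Cnn3 rose by 2.45 ± 0.12 and Anxa2, a membrane-binding annexin, by 2.17 ± 0.11, and Actn1, which crosslinks actin, rose by 1.01 ± 0.11. The smooth muscle genes Cnn1, Tpm2, Myl9 and Actg2 of that list were below the dim limit.

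By groups that do not overlap, 15 of the 33 measured members were lower in both Ets1-deleted arrays (45.5%) and 7 were higher (21.2%), beside 26.7% and 26.4% of all 18194 genes. The 15 include the collagen I, III and VI chains, Fn1, Bgn, Mmp2, Mmp14 and the 3 genes that fell, and 13 of the 15 differed by less than 1.3-fold. They share their source, the same 4 arrays, and are not replicates. The count of 15 reads the brightest probe sets alone. For Col1a1, Col6a2, Bgn and Cald1, other probe sets above the dim limit overlapped between groups.

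Arrays of the same group differed about as much in these genes as in others. The median size of the log2 difference between the controls was 0.12 over the 26 tested members and 0.11 over all tested genes. Between the Ets1-deleted arrays it was 0.11 and 0.12. Control 1 was above control 2 in 13 of the 26 members, and Ets1-deleted 1 above Ets1-deleted 2 in 11. The largest gap between controls was that of Sparc, 0.47 on the log2 scale, and the largest between Ets1-deleted arrays that of Tagln, 0.53.

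Further stromal genes went in different directions. Of 15 mesenchymal regulators and surface genes, 14 were on the array and 9 of these lay below the dim limit, including the transcription factor genes Twist1, Twist2, Tcf21 and Tbx18. Another transcription factor gene, Prrx1, was above the limit on all 4 arrays, at 120.97 and 137.33 units in the controls and 140.85 and 118.68 in the Ets1-deleted arrays. Neither Prrx1 (0.0045) nor Nt5e (-0.14, at 280.5 to 327.64 units) passed the test. Among the 5 tested, Pdpn, the podoplanin gene, rose by 0.48 ± 0.11. Snai2, which encodes a repressor of epithelial genes, fell by 1.00 ± 0.11, to values under the dim limit (78.5 and 83.03 units) from 156.96 and 165.94, and Eng, a TGF-beta coreceptor gene, fell by 0.41 ± 0.13. Of 19 marrow stroma and preadipocyte genes, 9 were tested, 4 rose and 1 fell, with a median of 0.30. Igfbp4, which binds insulin-like growth factors, rose by 2.54 ± 0.11, from 428.76 and 459.82 units to 2448 and 2736. The Notch ligand gene Jag1 rose by 1.25, Cebpb by 1.08 and the lipid carrier gene Fabp4 by 0.76, and Csf1, the macrophage growth factor gene, fell by 0.62. In limma, the adjusted p was at most 0.0337 for the 8 genes named here as rising or falling. The defining genes Lepr and Adipoq of that list were near the floor, between 72.03 and 76.19 and between 55.21 and 59.22 units.

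Markers of other cells moved in the same arrays as the Timp genes. Of 12 macrophage and monocyte genes, 8 were tested and all 8 rose, with a median of 0.78, and their summed intensity was 1887 and 1986 units in the controls against 3770 and 3323. C1qb, a complement subunit of macrophages, rose by 1.37 ± 0.13, Mrc1 by 1.17 ± 0.12 and Csf1r, the receptor for CSF1, by 1.01 ± 0.13, while Cd14, Fcgr1 and Itgam lay below the dim limit. In the mast cell list of 12, 9 were tested, 7 rose and 0 fell, and the sums were 2547 and 2564 units against 4317 and 4153. The 2 that did not pass were Tpsb2 (0.06, overlapping groups) and Mcpt8. Mcpt8, the brightest of the list in the controls, was lower without overlap (-0.25), at 1337 and 1385 units against 1097 and 1193. Most of the rise in the sums came from Cpa3, at 85.86 and 78.3 units against 1497 and 1261. The mast cell carboxypeptidase gene Cpa3 rose by 4.07 ± 0.12, Mcpt2 by 1.39 ± 0.11 and Mcpt1 by 0.64 ± 0.11, while the IgE receptor genes Fcer1a and Ms4a2 lay below the dim limit when averaged over the arrays. Adgre1, C1qa, Cpa3 and Hdc of these lists were below the dim limit in both controls and were tested only through their Ets1-deleted values, so the counts of risers lean upward. Of 9 platelet and megakaryocyte genes, 4 were tested and 2 rose, Itgb3 (0.94 ± 0.12) and Pf4 (0.93 ± 0.12), with sums of 3086 and 2667 against 5158 and 4999.6 units. Itgb3 held most of these sums, at 2441 and 2006 units in the controls against 4316 and 4204. The 2 that did not pass were Itga2b (0.29, no overlap) and Gp9 (-0.017, overlapping groups). Macrophages, mast cells and platelets can express Timp genes, and the part of such cells in the rise of Timp1, Timp2 and Timp3 was not tested. Of 10 endothelial genes, 8 lay below the dim limit, 0 rose and 1 fell, Eng, with sums of 1242 and 1323 against 1102 and 1224.

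The lymphocyte and ILC2 list had 13 genes tested, 4 higher and 4 lower, with a median of -0.10 and sums of 51618 and 49175 units against 46558 and 46549. Thy1 rose by 1.91 ± 0.11 and Rora, a transcription factor ILC2 need, by 1.29 ± 0.12, and Klrg1, a receptor of mature ILC2, fell by 1.60 ± 0.11. Il17rb and Il2ra rose too, by 0.93 and 0.81. The 5 that did not pass were Lcp1 (-0.26), Ptprc (-0.14), Laptm5 (-0.10), Gata3 (0.08) and Il7r (0.05). The pan-lymphocyte gene Cd52 fell by 0.56 ± 0.11 (limma, adjusted p = 0.00213), from 9286 and 9243 units to 6223 and 6344. Icos, the gene of the sorting marker, had a log2 difference of -0.38 ± 0.11 (limma, adjusted p = 0.0232), and Coro1a, an actin regulator of leukocytes, -0.33 ± 0.11 (limma, adjusted p = 0.0408). Leaving out Ets1-deleted 1 or either control array ended the call for Icos (limma adjusted p between 0.0667 and 0.14), as did subtracting the array floor (0.076). For Coro1a it ended without control 1, control 2 or Ets1-deleted 2 (limma adjusted p between 0.128 and 0.211) and with the array floor subtracted (0.109). Genes of this list beyond Thy1, Rora and Klrg1 were named after their values were seen. Their part in the differences of the matrix and stromal genes was not tested. The other macrophage, mast cell, platelet, endothelial and lymphocyte genes named as rising or falling had limma adjusted p values of at most 0.0337.

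**Figure D4:**
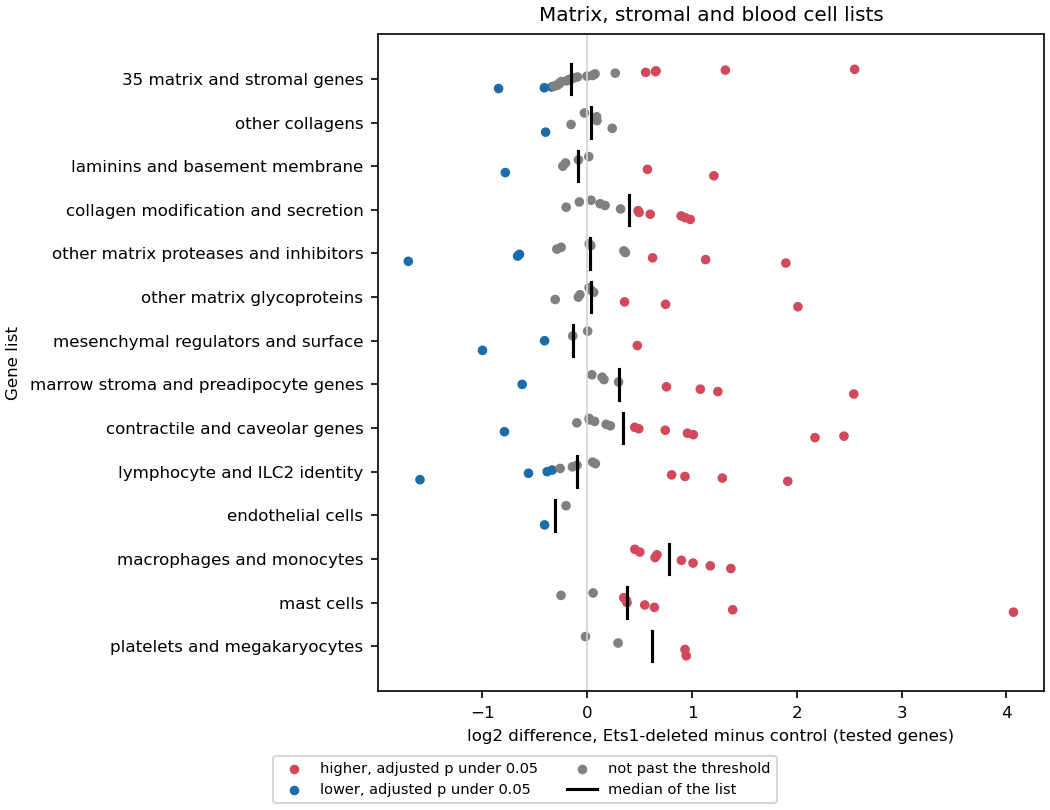
Log2 difference (Ets1-deleted minus control) of each tested gene in the matrix and stromal group and in 13 further lists, coloured by the result of the test, with the list median as a black bar. The matrix and stromal group has its median at -0.16, with Timp3 (2.55) and Timp2 (1.32) furthest to the right. All 8 tested macrophage and monocyte genes lie to the right of 0.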

How the data were processed

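The authors deposited 1 intensity per probe set and array, summarised with RMA per the submitters' processing notes, which name no software, version or later scaling. No label names an array batch. The values run up to 23291 and were read as linear, an inference from their range. They were turned into log2 without further normalization. Of 45101 probe sets, 34958 had 1 gene symbol and were used, 932 had several, and 9211 without a listed symbol are unnamed here.

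The test was lmFit and eBayes of limma 3.58.1 (R 4.3.3), Ets1-deleted minus control over all 4 arrays, two-sided, with Benjamini-Hochberg adjustment over 10873 genes. It has 2 residual and 9.75 prior degrees of freedom, and ± is the SE from limma. With 2 arrays in each group, the smallest p of an exact permutation test is 0.333. The number of arrays limits the precision. The code was tested on simulated data for these 10873 genes, with 200 of them changed. It recovered 70.1% of log2 changes of 0.5 and 100% of changes of 1 or 2, with 11 false calls at each size. Since 2900 genes were called in the data, these shares need not hold there.

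All members are accounted for. From the other lists the text names up to 3 called genes of smallest p. It names more where they are few, described by role or needed to show both directions. Members, lists and tests were chosen with earlier results of these data known. Alternatives covered normalization, the filter, probe sets, variance, the array floor, a replicate block and leaving out each array.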

Additional observations from a re-analysis of the deposited data

How the results depend on the processing

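The 5 genes that rose numbered 5 or 6 under all 13 alternatives, and Timp3 ranged from 2.42 to 3.20 on the log2 scale. The number of members called lower was between 1 and 3 when each array was left out. Pdgfrb was called each time and Cxcl12 without control 1 or Ets1-deleted 2, while Vcam1 was lost each time and Col6a2 was gained without control 1. Without either control array, limma gave every tested member the same SE, 0.17, so no gene's own spread entered there. A group left with 1 array has no spread of its own in any of these 4 fits. The count of all called genes then lay between 2252 and 2723, and under the stricter filter it was 2121. That filter (70th percentile, 193.8 intensity units) left 15 of the 26 members bright enough, since fewer genes reach it. The replicate block, which the labels' shared numbers allow, called 3252 genes and changed no member's call. The correlation of same-numbered deviations was 0.167 over the tested genes, a value that cannot tell whether arrays were paired by design.

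Sign changes occurred only in members that passed no test in any of these alternatives. Col5a1 changed sign under repeated quantile normalization (0.0054) and median centring (0.013). With each array left out in turn, the log2 difference ranged from -0.069 to 0.064 for Col5a1, from -0.062 to 0.18 for Col5a2 and from -0.16 to 0.31 for Sparc. It ranged from -0.38 to 0.014 for Fstl1, from -0.36 to 0.17 for Tagln and from -0.041 to 0.14 for Acta2. For Bgn the range was -0.31 to 0.021, the latter without Ets1-deleted 1, where another of its probe sets was the brightest. Scaling moved the median of all tested genes by less than 0.02. Signal near the array floor limits what can be said of the dim members.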
